A study of Mus musculus with 6 samples.

Results

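Scamp5, Rims3, Paqr9, Pcolce2 and Dmpk are 5 genes known mainly from nerve, muscle or connective tissue, and in mouse spleen they stood among the genes with the largest excess in macrophages. Out of 19057 genes measured on an Illumina bead array, they were chosen for that excess and for being known mainly from those tissues. That excess came from these same arrays, so their difference between macrophages and dendritic cells is described here and not tested. The array held 10 probes for them: 3 for Paqr9, 2 each for Scamp5, Pcolce2 and Dmpk, and 1 for Rims3. Total RNA came from spleen cells of C57/B6 mice in 3 populations of 2 arrays each, 6 in all: macrophages, and conventional dendritic cells (cDC) with CD8 (CD8+) or without it (CD8-). The labels name no treatment, no allele, and neither the age of the mice nor the way the cells were purified. They also do not say whether the arrays of a group came from separate animals, so the p-values cover the spread between these arrays alone, which may be technical.

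Splenic macrophages engulf ageing red blood cells and recycle their iron, while cDC take up antigen and present it to T cells. Scamp5 is a secretory carrier membrane protein, a vesicle protein best known from brain, and human SCAMP5 has been linked to the release of cytokines. Rims3 is a short member of the RIM family, whose longer members dock vesicles at the presynaptic release site. Paqr9 belongs to the progestin and adipoQ receptor family and is counted among the membrane progesterone receptors. Pcolce2 is a secreted protein that binds procollagen and enhances removal of its C-terminal propeptide by proteinases of the Bmp1 type. Dmpk is a serine/threonine kinase of muscle, and repeat expansion in the human gene causes myotonic dystrophy.

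Paqr9 and Pcolce2 are neighbours on chromosome 9, with no other protein-coding gene between them in the gene table of assembly GRCm38.p6. Scamp5 lies elsewhere on the same chromosome, Dmpk on chromosome 7 and Rims3 on chromosome 4. Promoter sequences from RefSeq (GRCm38.p6) matched 4 of the 5 genes, all but Paqr9. The 250 bases before the annotated start are shown as sequence context for the 4 genes, which were not grouped by sequence. They are written 5′ to 3′ in the direction of the gene. Capitals mark GAGGAA or GGAAGT on either strand, 2 letter strings that overlap where GAGGAAGT occurs. Both hold the GGAA core bound by the Ets family, to which the macrophage factors Spi1 and Spic belong.
Scamp5, chr9:57468061-57468310, minus strand: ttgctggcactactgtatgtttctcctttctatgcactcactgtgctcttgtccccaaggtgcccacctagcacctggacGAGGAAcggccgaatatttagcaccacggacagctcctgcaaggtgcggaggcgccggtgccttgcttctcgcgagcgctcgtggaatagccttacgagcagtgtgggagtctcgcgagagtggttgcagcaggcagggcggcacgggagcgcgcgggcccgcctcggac
Rims3, chr4:120854549-120854798, plus strand: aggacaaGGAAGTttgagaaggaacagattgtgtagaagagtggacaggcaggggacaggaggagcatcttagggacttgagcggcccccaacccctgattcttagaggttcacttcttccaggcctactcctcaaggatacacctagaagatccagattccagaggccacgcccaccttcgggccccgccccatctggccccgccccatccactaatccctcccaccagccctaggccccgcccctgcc
Pcolce2, chr9:95637378-95637627, plus strand: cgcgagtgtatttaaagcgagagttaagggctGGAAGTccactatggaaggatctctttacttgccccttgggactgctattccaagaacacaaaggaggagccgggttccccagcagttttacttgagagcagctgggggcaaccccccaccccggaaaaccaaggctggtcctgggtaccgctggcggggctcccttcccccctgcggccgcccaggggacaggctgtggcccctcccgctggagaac
Dmpk, chr7:19083608-19083857, plus strand: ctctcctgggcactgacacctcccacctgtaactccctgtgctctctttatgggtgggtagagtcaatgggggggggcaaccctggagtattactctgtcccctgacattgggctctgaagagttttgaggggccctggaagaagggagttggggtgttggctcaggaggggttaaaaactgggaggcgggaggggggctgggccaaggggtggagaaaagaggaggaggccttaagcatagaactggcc

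No string searched occurred in all 4 sequences. GGAAGT occurred once each in Rims3 and Pcolce2, and in 19.7% of 32841 promoters of the same length. GAGGAA occurred once, in Scamp5, and in 23.3% of all promoters, and the longer GAGGAAGT in none of the 4 and in 2.44% of all. The GC-box string GGGCGG was found 3 times in Rims3 and once each in Scamp5 and Pcolce2, against 32.7% of all promoters with at least 1 match. TGANTCA (AP-1), CACGTG (E-box), TGCTGA (a Maf element) and TATAAA had no match in these windows on either strand, and 6.75%, 6.02%, 16.1% and 12.4% of all promoters held them. The windows also differed in CG dinucleotides. Scamp5 had 21, Pcolce2 10, Rims3 6 and Dmpk 1, against a median of 6 over all promoters.

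Before the levels, 1 feature of the cDC arrays has to be stated. CD8+ cDC replicate 2 and CD8- cDC replicate 1 carried more signal of macrophage genes than the other array of their own group. Of 16 macrophage markers, 15 were higher on CD8+ cDC replicate 2 than on replicate 1, by a median of 2.18 log2, and 15 were higher on CD8- cDC replicate 1 than on replicate 2, by a median of 2.23. Among these 16, Fcgr1 and Siglec1 were above background on no cDC array, so their steps lie between background readings. Over all genes these median steps were 0.03 and -0.01. The summed linear signal of the list was 179975 and 194481 on the macrophage arrays, 3312 and 15908 on CD8+ cDC replicates 1 and 2, and 16565 and 7590.3 on CD8- cDC replicates 1 and 2. Adgre1 (11.89 and 11.87) and Csf1r (10.53 and 10.46) were about level between CD8- cDC replicates 1 and 2. Adgre1 had 28.8% and 28.5% of its macrophage signal there, against 2.55% and 7.08% on CD8+ cDC replicates 1 and 2. The sums therefore do not compare macrophage signal between the CD8+ and CD8- arrays. On the macrophage side, replicate 1 held 4482 of summed cDC marker signal and replicate 2 held 1728, against 22559 to 28527 on the cDC arrays. The markers otherwise bore out the labels: 14 of 16 macrophage markers were higher in macrophages and 9 of 10 cDC markers lower, where 8.22% and 7.21% of all genes were called higher and lower by limma at an adjusted p under 0.05. Results are therefore given with and without the 2 cDC arrays named. In these bulk samples fewer cells of a type and less RNA per cell cannot be told apart.

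Scamp5 was bright in macrophages and at or near background in cDC. Its brighter probe, ILMN_1242246, read 11.38 and 11.64 log2 on macrophage arrays, 4.57 and 6.31 on CD8+ arrays, and 5.03 and 4.35 on CD8- arrays. The background level was 5.25 log2, the 99th percentile of 1597 probes for smell, pheromone and taste receptors and keratin-associated proteins, and only CD8+ cDC replicate 2 rose above it among the cDC arrays. Where a cDC array lay at or under background it was counted at that level and the fold is a minimum. On this footing Scamp5 was at least 53.0-fold higher in macrophages than in CD8+ cDC and at least 76.5-fold higher than in CD8- cDC. The second probe, ILMN_1255263, read only 5.90 and 6.38 in macrophages. It read between 4.51 and 4.89 on the 4 cDC arrays, which put all of these cDC values below background. On this probe the excess was at least 1.85-fold, so the large folds rest on the brighter probe.

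Rims3, the other vesicle gene, was the only one of the 5 above background on every array. Its single probe read 12.47 and 12.73 for macrophages, 5.52 and 7.54 for CD8+ cDC, and 7.36 and 5.81 for CD8- cDC. The lowest macrophage value stood far above the highest cDC value, and each cDC group had 1 high and 1 low array. Mean levels were 12.60 ± 0.18 for macrophages, 6.53 ± 1.43 for CD8+ cDC and 6.58 ± 1.10 for CD8- cDC (SD, n = 2 each). That is 67.3-fold and 64.8-fold higher in macrophages than in CD8+ and CD8- cDC. Single arrays moved these values: the excess was 135-fold over CD8+ cDC replicate 1 and 33.4-fold over replicate 2, and 37.8-fold over CD8- cDC replicate 1 and 111-fold over replicate 2.

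Paqr9, the membrane receptor, showed the same profile on 2 of its 3 probes. Probe ILMN_2752524 read 11.38 and 11.61 for macrophages, 4.54 and 5.74 for CD8+ cDC, and 5.65 and 4.63 for CD8- cDC. Macrophage and cDC values were far apart, and 1 array of each cDC group passed background. This made it at least 63.9-fold higher than in CD8+ cDC and at least 65.9-fold higher than in CD8- cDC. Probe ILMN_3094043 read 9.50 and 9.48 in macrophages and 4.89 to 5.21 on the cDC arrays, every cDC value lying below background, for an excess of at least 18.8-fold. The last probe, ILMN_3021711, lay below background on all 6 arrays, between 4.40 and 4.64, and gave no information on the gene.

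Pcolce2, the procollagen-binding protein next to Paqr9, was high in macrophages on both of its probes. Probe ILMN_1238603 read 11.53 and 12.14 for macrophages, 4.79 and 5.80 for CD8+ cDC, and 6.59 and 4.55 for CD8- cDC. Again 1 array of each cDC group was above background and the other below it. The excess was at least 79.1-fold over CD8+ cDC and at least 60.2-fold over CD8- cDC, in which it was 37.9-fold over replicate 1 and at least 95.7-fold over replicate 2. Probe ILMN_2678421 read 9.96 on both macrophage arrays and 4.64 to 5.57 on the cDC arrays, an excess of at least 24.0-fold over all cDC arrays.

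Dmpk, the muscle kinase, was bright in macrophages on only 1 of its 2 probes. Probe ILMN_1237061 read 11.31 and 11.68 for macrophages, 4.43 and 5.74 for CD8+ cDC, and 6.16 and 4.73 for CD8- cDC. The groups did not overlap, and CD8+ cDC replicate 2 and CD8- cDC replicate 1 were the cDC arrays above background. It was at least 64.1-fold higher than in CD8+ cDC and at least 55.2-fold higher than in CD8- cDC. Probe ILMN_1229944 read only 5.30 and 5.52 in macrophages, barely above background, and 4.73 to 4.94 in cDC. The places of the probes on the transcripts are not used here, so it cannot be said which transcripts each one detects.

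**Figure D1:**
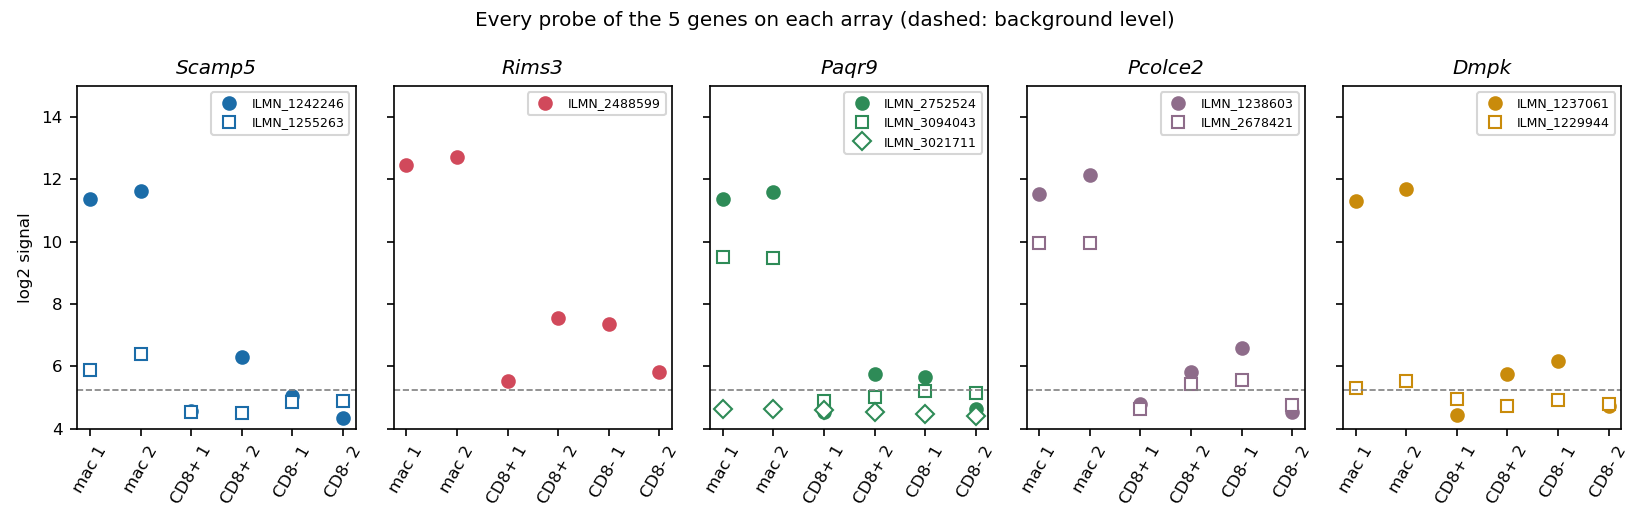
Log2 signal (y axis) of every probe of the 5 genes on the 6 arrays (x axis; mac, macrophages; CD8+ and CD8-, the cDC groups; numbers are replicates); filled circles are the brightest probe of a gene, open symbols its other probes, and the dashed line is the background level of 5.25. On all filled probes both macrophage arrays lie above 11 log2 and all cDC arrays below 8.

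Among the 10 probes, 9 were above background on both macrophage arrays, 4 were above it on no cDC array, and 1 (Rims3) was above it on all 4. Both macrophage arrays exceeded all cDC arrays on 10 of 10 probes, as did 13.5% of all 45281 probes. Since the genes were picked for this, nothing follows from the count. The values as deposited gave log2 differences of 6.45 for Scamp5, 6.40 for Pcolce2, 6.35 for Paqr9, 6.23 for Dmpk and 6.05 for Rims3, which places them between 6 and 16 by size among 19057 genes. These figures include cDC readings below background and set no order among the 5. With such readings raised to background, the excess of each gene's brightest probe over all cDC arrays was 66.0-fold for Rims3. It was at least 69.0-fold for Pcolce2, 64.9-fold for Paqr9, 63.7-fold for Scamp5 and 59.5-fold for Dmpk. Without CD8+ cDC replicate 2 and CD8- cDC replicate 1, every cDC reading of 4 of the genes lay below background. The excess was then at least 95.7-fold for Pcolce2, 76.5-fold for Scamp5, 75.8-fold for Dmpk and 75.5-fold for Paqr9, and was 122.6-fold for Rims3.

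The signal of the 5 genes on cDC arrays moved with the macrophage markers. All 5 were higher on CD8+ cDC replicate 2 than on replicate 1, by 1.02 (Pcolce2) to 2.02 (Rims3), and all 5 were higher on CD8- cDC replicate 1 than on replicate 2, by 0.69 (Scamp5) to 2.04 (Pcolce2). Both steps had this direction in 23.6% of all genes, and in 14 of 16 macrophage markers. Both reached at least 1 log2 in 0.231% of all genes, and in 4 of the 5 genes, Scamp5 being the exception. The same direction was seen in 98 of the 115 other genes with a macrophage excess of at least 4 log2, and in 1 of 10 cDC markers. In CD8- cDC both Scamp5 readings (5.03 and 4.35) lay below background, so that step compares background readings. In every other step of Scamp5, Paqr9, Pcolce2 and Dmpk the lower array was below background, so the sizes of those steps are uncertain. Rims3, which could be followed on every array, had on CD8+ cDC replicates 1 and 2 a signal of 0.735% and 2.98% of its macrophage mean on the linear scale, and on CD8- cDC replicates 1 and 2 of 2.63% and 0.897%. The macrophage integrin Itgad had 0.604%, 3.45%, 2.75% and 0.786% on the same 4 arrays. All 5 genes were also higher on macrophage replicate 2 than on replicate 1, by 0.23 (Paqr9) to 0.61 (Pcolce2). The same held for 10137 of all 19057 genes and for 97 of the 115 other genes with an excess of at least 4 log2. Replicate 1 was the macrophage array with more cDC marker signal. The part of macrophage RNA in the cDC signal of these genes was not tested.

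**Figure D2:**
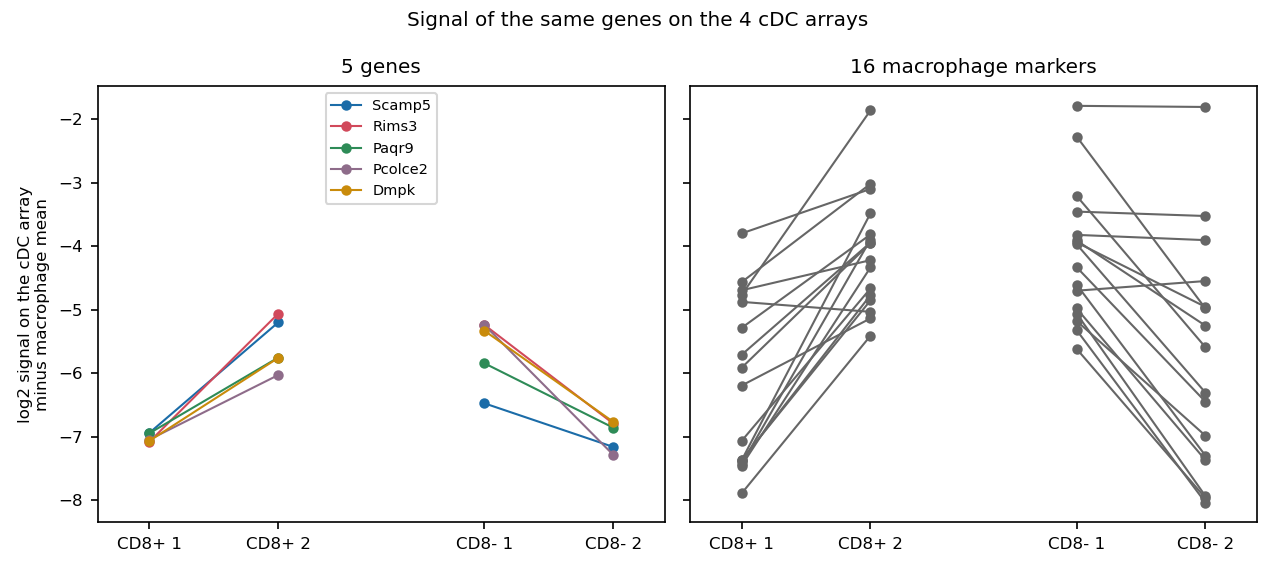
Log2 signal on each of the 4 cDC arrays minus the gene's mean in macrophages (y axis) for the 5 genes (left, brightest probe) and 16 macrophage markers (right); lines join the 2 arrays of a group. All 5 genes and 14 of 16 markers are higher on CD8+ cDC replicate 2 and on CD8- cDC replicate 1 than on the other array of the group. For Scamp5 both CD8- cDC readings lie below background.

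Whether the 5 genes differ between the cDC groups can be tested, since that contrast was not used to choose them. No difference was called: 0 of 5 passed an adjusted p under 0.05 in limma, and 0 of 5 had an unadjusted p under 0.05, where 2.04% of all genes were called. Most of the readings compared are low: Scamp5 was above background on 1 CD8+ and on 0 CD8- arrays, and Paqr9, Pcolce2 and Dmpk on 1 array of each group, so for these 4 genes the estimates rest partly on readings below background. Scamp5 differed by 0.75 log2, CD8+ minus CD8-, with a 95% interval from -0.83 to 2.33 (adjusted p = 0.841). Rims3 differed by -0.05 (-2.19 to 2.08, adjusted p = 0.998), Paqr9 by 0.0014 (-1.33 to 1.33, adjusted p = 0.9999), Pcolce2 by -0.27 (-2.25 to 1.70, adjusted p = 0.987) and Dmpk by -0.36 (-2.02 to 1.29, adjusted p = 0.967). The intervals span more than 1 log2 in both directions for 4 of the genes, so differences of that size were not detectable with these arrays. The sign turned with the array left out: for Rims3 the difference ran from -1.06 to 0.96 over the 6 fits that left out 1 array, and for Scamp5 from -0.12 to 1.62. The order of the levels was thus macrophages first, with the 2 cDC groups not separated beyond their spread.

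**Figure D3:**
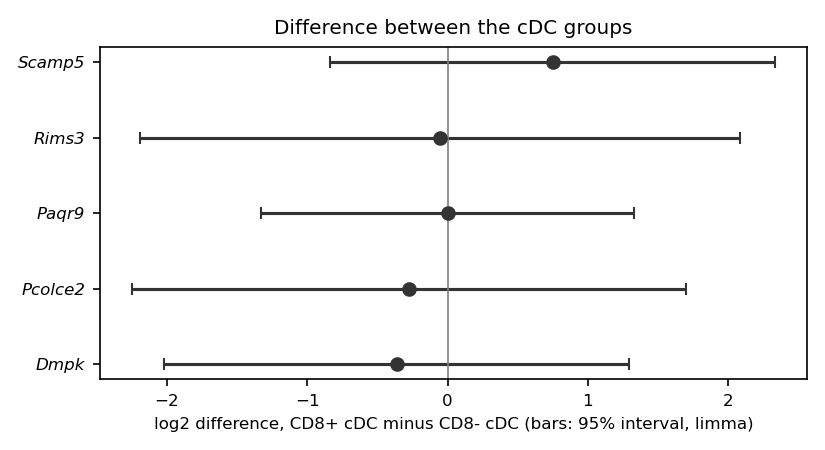
Log2 difference between CD8+ and CD8- cDC (x axis; points, limma estimate; bars, 95% interval) for the brightest probe of each of the 5 genes. All 5 intervals include 0.

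Among themselves the 5 profiles were close, with each gene's log2 values centred on its own mean over the 6 arrays. The root mean square difference was smallest between Paqr9 and Dmpk (0.21) and largest between Scamp5 and Pcolce2 (0.62). Neighbouring Paqr9 and Pcolce2 stood at 0.34. Of 8886 other genes above background in macrophages, those nearest to Rims3 were complement C2 (0.13), Itgad (0.16), the elastase Cela1 (0.23), the growth factor Igf1 (0.24) and the ubiquitin-like Ubd (0.25). The sugar transporter family member Slc45a3 was nearest to Pcolce2 (0.14), the apolipoprotein Apoc1 to Dmpk (0.17), the monocarboxylate carrier family member Slc16a9 to Paqr9 (0.25) and the transglutaminase Tgm1 to Scamp5 (0.40). Apoc1, Slc45a3 and Ubd were each among the 5 nearest genes of 3 of the 5. With 6 arrays in 3 groups, such likeness reflects mainly the step between macrophages and cDC and the step between cDC arrays.

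Genes related to the 5 were then tested between macrophages and the mean of both cDC groups. Without both CD8+ cDC replicate 2 and CD8- cDC replicate 1, 0 of 19057 genes were called, with 1 residual degree of freedom, and all 31 family and neighbouring genes called with them kept their direction. The fit without both arrays reused the other arrays that made the calls, so the kept direction is no separate support. The 7 lists, which leave out the 5 genes themselves, held 163 measured genes. Of these, 19 were higher and 9 lower in macrophages, or 11.7% and 5.52%, where 8.22% and 7.21% of all genes were. In none of the lists did another gene reach the excess of the 5. Since the 5 were chosen for that excess, nothing follows from this. The median difference over all genes was -0.002.

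Among vesicle proteins, Scamp1 was the 1 of 4 other SCAMP genes called, higher in macrophages by 1.71 (SE 0.26, adjusted p = 0.0197). Its values were 10.71 ± 0.05 for macrophages, 9.12 ± 0.37 for CD8+ cDC and 8.88 ± 0.51 for CD8- cDC (SD, n = 2 each), and it was not called once any of macrophage replicate 1, macrophage replicate 2 or CD8+ cDC replicate 1 was left out. Scamp2, Scamp3 and Scamp4 were not called, and the list median was 0.49. In the list of RIM proteins and their partners at release sites, 1 of 34 was higher (2.94%, against 8.22% of all genes). Lower were 3 (8.82%, against 7.21%), with a median near 0. At background on all arrays were 18 (52.9%, against 44.3% of all genes). The priming factor Unc13b was at least 9.02-fold higher in macrophages (adjusted p = 0.00454), at 8.47 ± 0.35 against 4.97 ± 0.64 in CD8+ cDC and 4.62 ± 0.17 in CD8- cDC. The RIM-binding protein Tspoap1 differed by -3.01 (adjusted p = 0.00448, SE 0.25) and was lower in macrophages. Its mean was 6.17 ± 0.30 there, 9.88 ± 0.04 in CD8+ cDC and 8.49 ± 0.52 in CD8- cDC. Both were called in all 6 fits that left out 1 array. The secretory GTPase Rab27a (-1.26, adjusted p = 0.0184) and the exchange factor Rab3ip (-0.89, adjusted p = 0.037) were lower too, but each kept its call in only 1 of those 6 fits, the one without macrophage replicate 1.

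SNARE proteins and synaptotagmins, the fusion machinery, were higher for 9 of 55 (16.4%, against 8.22% of all genes). They were lower for 2 (3.64%, against 7.21%), and the median was 0.02. Vamp5 was higher by 2.50 (adjusted p = 0.00716), the fusion ATPase Nsf by 1.38 (adjusted p = 0.0175) and the endosomal syntaxin Stx12 by 1.29 (adjusted p = 0.0274), while Vti1a was lower (-1.30, adjusted p = 0.00716, or 0.0923 with its 7 probes averaged). The calls of Nsf and Stx12 were lost without either macrophage array, and that of Stx12 also without either CD8- cDC array; that of Vamp5 was lost without macrophage replicate 2. The neuronal partners Snap25 and Syt1 were at background on all arrays.

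PAQR receptors and progesterone-binding membrane components were higher for 4 of 11 (36.4%, against 8.22% of all genes) and lower for 1 (9.09%, against 7.21%). The list median was 0.24. The adiponectin receptor Adipor1 was higher by 1.48 (adjusted p = 0.00364, SE 0.11). It averaged 12.15 ± 0.01 in macrophages, 10.78 ± 0.22 in CD8+ cDC, 10.55 ± 0.06 in CD8- cDC, and was called in all 6 fits that left out 1 array. Adipor2 was lower (-0.63, adjusted p = 0.0133), a call lost without macrophage replicate 2, without either CD8- cDC array and with all probes averaged. Mmd (0.99), the membrane progesterone receptor Paqr7 (0.97) and Pgrmc1 (0.94) were higher with adjusted p of 0.0258, 0.0254 and 0.0257, and kept their calls in 2, 1 and 1 of the 6 fits.

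Among genes of collagens and their processing, the setting in which Pcolce2 is known, 3 of 31 were higher (9.68%, against 8.22% of all genes), none was lower and the median was 0.04. At background on all arrays were 17 of them (54.8%, against 44.3% of all genes), Col1a1, Col1a2 and Col3a1 among them. The higher genes were the lysyl hydroxylases Plod1 (at least 4.67-fold, adjusted p = 0.0101) and Plod3 (1.25, adjusted p = 0.0148) and the prolyl hydroxylase subunit P4ha1 (1.36, adjusted p = 0.0185), which modify collagen inside the cell. Plod1 was called in all 6 fits that left out 1 array, while Plod3 and P4ha1 were not called without either macrophage array, nor P4ha1 without either CD8+ cDC array.

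Kinases related to Dmpk and parts of the myosin phosphatase pathway were higher for 1 of 19 and lower for 1. That is 5.26% each, against 8.22% and 7.21% of all genes, and the median was 0.04. The higher gene was the myosin light chain kinase Mylk, by at least 1.41-fold (adjusted p = 0.00362). The lower gene was the phosphatase subunit Ppp1r12c, by at least 1.18-fold (adjusted p = 0.00559), and both were close to background. Of 9 splicing regulators of the MBNL and CELF families, 0 were higher and 2 lower (22.2%, against 7.21% of all genes). The activity of these families is altered by the repeat RNA of human myotonic dystrophy. Celf4 was at least 2.38-fold lower on its brightest probe (adjusted p = 0.0277), and differed by -0.44 log2 with its 6 probes averaged (adjusted p = 0.0448). Mbnl1 differed by -0.63 (adjusted p = 0.039). With the replicate number as a block the adjusted p of Mbnl1 was 0.0639, with its probes averaged 0.342, and its call was lost in each of the 6 fits that left out 1 array; Celf4 kept its call in 2 of them, which lacked replicate 1 of CD8+ or of CD8- cDC.

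**Figure D4:**
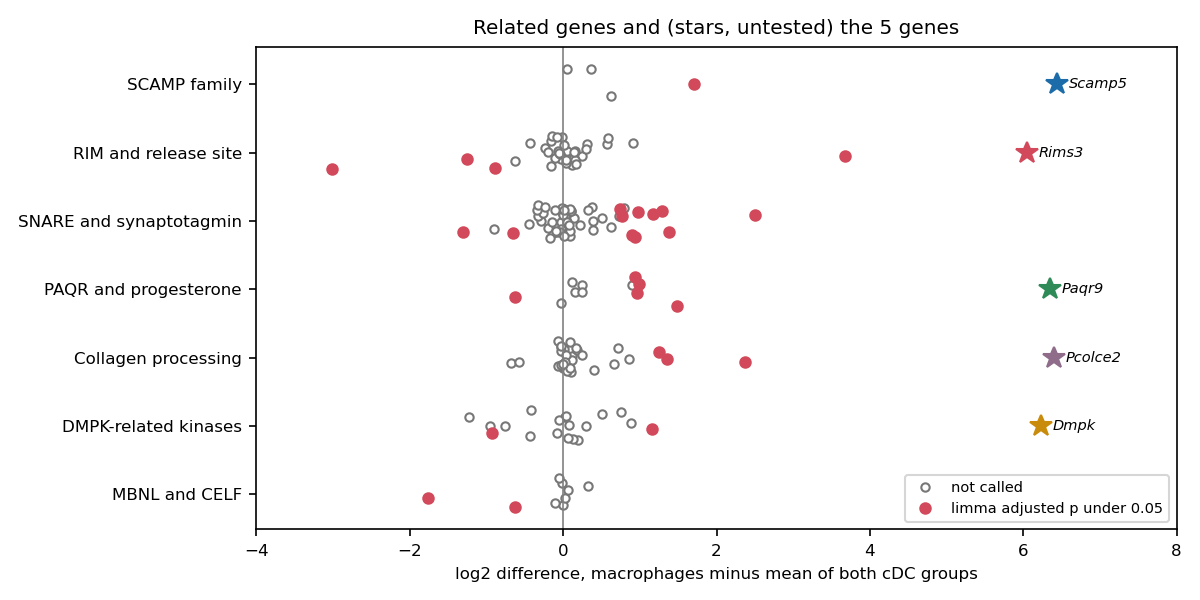
Log2 difference between macrophages and the mean of both cDC groups (x axis) for every measured gene of 7 related lists (rows; circles, filled where called by limma at an adjusted p under 0.05), with the 5 genes as stars, which were not tested. The largest difference among the related genes is 3.67 (Unc13b), against 6.05 to 6.45 for the 5 genes, which were chosen for their excess.

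Neighbours on the chromosome were examined as well, the 3 nearest measured genes on each side of the 5, or 24 genes in all. Of these, 2 were higher in macrophages (8.33%, against 8.22% of all genes), 1 was lower (4.17%, against 7.21%) and 21 were not called. Dmwd, the WD-repeat gene directly beside Dmpk, read 10.01 and 9.97 for macrophages, 5.61 and 6.06 for CD8+ cDC, and 6.82 and 6.91 for CD8- cDC. It was higher in macrophages by 3.64 (SE 0.14, 12.5-fold, adjusted p = 0.00108), the groups did not overlap, and the call held in all 6 fits that left out 1 array. A second Dmwd probe gave 3.49 (adjusted p = 0.00143) and the third, near background, 0.49 (adjusted p = 0.169). Unlike Dmpk, Dmwd was about level between the 2 arrays of CD8- cDC. Six5, the homeobox gene on the other side, read 5.51 and 6.44 for macrophages, 4.54 and 4.59 for CD8+ cDC, and 4.76 and 5.28 for CD8- cDC. Its difference of 1.18 was not called (adjusted p = 0.0847), but had adjusted p = 0.0375 with the replicate number as a block.

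Beside Pcolce2, the cation channel subunit Trpc1 read 6.37 and 6.85 in macrophages and 4.31 to 4.36 on all cDC arrays. It was at least 2.56-fold higher in macrophages (adjusted p = 0.00279), called in all 6 fits that left out 1 array, although its 3 other probes lay below background throughout. On the far side of Paqr9, the splicing factor U2surp was at 11.08 in macrophages and 10.88 in cDC on average, and was not called (0.21, adjusted p = 0.355). Among the neighbours of Scamp5, Ppcdc, an enzyme of coenzyme A synthesis, was lower (-0.90, adjusted p = 0.0273), a call lost in each of the 6 fits that left out 1 array. None of the 6 neighbours of Rims3 was called.

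**Figure D5:**
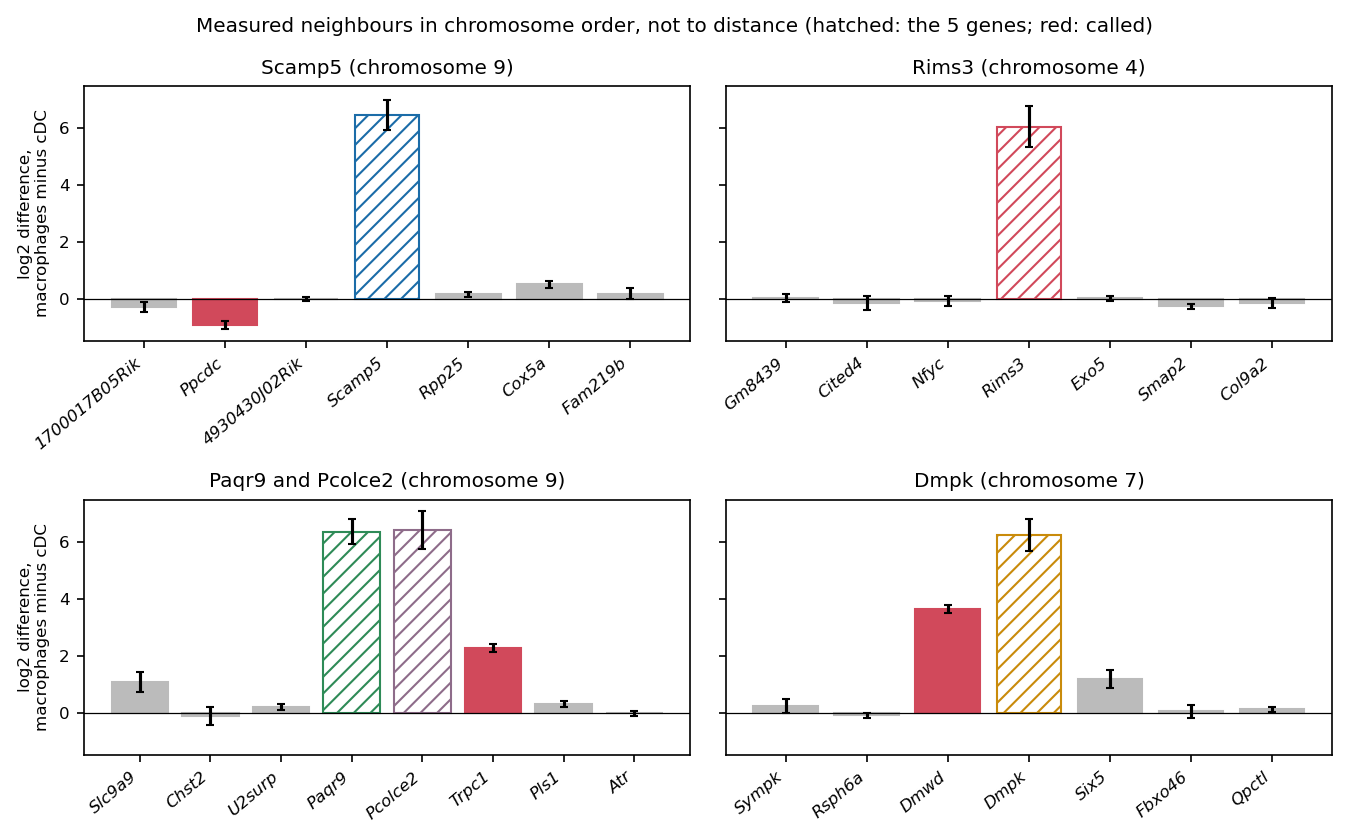
Log2 difference between macrophages and the mean of both cDC groups (y axis; error bars, SE) for the measured neighbours of the 5 genes in chromosome order, not to distance; hatched bars are the 5 genes, red bars are called neighbours and grey bars are not called. Dmwd (3.64) and Trpc1 (2.27) are the called neighbours above 0, and Ppcdc (-0.90) is the one below.

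Markers of the tissues in which the 5 genes are best known were counted in the same arrays. Over all genes, 44.3% were at background on all arrays. Of 19 neuron markers, none was above background on both macrophage arrays and 14 (73.7%) were at background on all arrays, Snap25, Syt1 and Rbfox3 among them. The neuronal filament gene Prph was the 1 called, with a difference of -1.03 (adjusted p = 0.00768). It read 4.66 and 4.44 for macrophages, 6.50 and 6.71 for CD8+ cDC, and 4.60 and 4.52 for CD8- cDC. Only its CD8+ readings were above background, so its lower level in macrophages holds against CD8+ cDC and not against CD8- cDC. The summed linear signal of this list was 489 to 511 in macrophages and 498 to 600.4 in cDC. Among 19 striated muscle markers 14 (73.7%) were at background throughout, including Ckm, Acta1 and Des. Their summed signal was 1008 to 1010.1 in macrophages and 2318 to 3365 in cDC, where the troponin Tnni2 was bright. In that list 3 were lower in macrophages (15.8%, against 7.21% of all genes) and 1 was higher (5.26%, against 8.22%). Lower were Tnni2 (-2.29, adjusted p = 0.0018), the myosin light chain Mylpf (-0.87, adjusted p = 0.0312) and the troponin Tnnt3 (-0.83, adjusted p = 0.0119). Higher was Tnnt1, by at least 1.69-fold (adjusted p = 0.00431). The call of Tnnt3 was lost without macrophage replicate 2, and that of Mylpf held only without CD8+ cDC replicate 1. Of 20 fibroblast and smooth muscle markers 11 (55.0%) were at background on all arrays. The filament protein Vim was the 1 called, lower in macrophages (-1.35, adjusted p = 0.0109), but not without macrophage replicate 2. The list summed to 1233 to 1323 in macrophages and 1622 to 2112 in cDC. Endothelial markers summed to 4511 to 5186 in macrophages and 1940.4 to 4422 in cDC, and 3 of 15 were higher in macrophages: Pecam1 (2.06, adjusted p = 0.00605), Vwf (1.79, adjusted p = 0.00279) and Eng (at least 3.33-fold, adjusted p = 0.0378), the call of Eng holding only in the fit without CD8+ cDC replicate 2. The 3 higher markers were 20% of the list, against 8.22% of all genes. Above background on both macrophage arrays were 6 of 15, those called and Cdh5, Esam and Plvap, which were not called. At background on all arrays were 5 (33.3%, against 44.3% of all genes): Kdr, Tek, Tie1, Emcn and Ptprb. The part of endothelial RNA in the levels of the 5 genes was not tested.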

How the data were processed

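RNA of spleen cells was hybridised by the submitters to Illumina mouse bead arrays. BeadStudio and limma are listed in the submitters' processing notes, with neither version nor role. The deposited table holds log2 values of the authors for 45281 probes. The labels do not state the log base, which was inferred from the range (4.25 to 14.53), nor the normalization. The columns had nearly the same distribution (largest gap 0.0349). The 12 columns of a second table match no label and were not used. No value was normalized further.

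Probes were named by GEO's platform annotation (34885 with 1 symbol, 18 with several, 10378 with none), of which 34803 gene IDs matched the RefSeq gene table. The brightest probe by its mean over all arrays stood for a gene. All arrays were fitted with lmFit and eBayes (limma 3.58.1, R 4.3.3), with 1 coefficient per group. Benjamini-Hochberg adjustment ran over all probes, and genes with an adjusted p under 0.05 were called. The step was checked on simulated data for macrophages minus cDC over 45281 probes: it called 27, 48, 50 and 50 of 50 probes changed by 1, 2, 4 and 6 log2. Simulated noise was independent for each probe and array, without the step of macrophage genes between cDC arrays. The check therefore covers recovery under such noise and not the calls on these arrays. Background was the 99th percentile of 1597 receptor and keratin-associated protein probes. On each array 15802 to 15827 probes exceeded it. The number of arrays limits the precision.

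The 5 genes, the lists and neighbour rule were chosen with earlier results of these data known. Named genes were up to 4 called genes per list with the largest differences, 3 neighbours per side and the 5 nearest profiles, of which some are printed. Other genes, such as Adipor2 and markers at background, were named after their values were seen. Alternatives were a replicate block, leaving out arrays, a filter on dim probes, other normalizations, all probes averaged and a lower background. Replicate differences correlated at 0.387, 0.219 and 0.256 between groups, so the shared numbers may pair the arrays, which the labels do not say.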

Additional observations from a re-analysis of the deposited data

How the results depend on the processing

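The excess of the 5 genes kept its direction under every alternative run. The genes were chosen for a very large excess on these same arrays, so nothing follows from that. Averaging all probes of a gene lowered the excess to 3.40 for Dmpk, 3.64 for Paqr9 and 3.94 for Scamp5, since dim probes then count in full. Leaving out 1 array gave 5.87 to 6.59 for Dmpk, 6.05 to 6.65 for Paqr9, 5.89 to 6.91 for Pcolce2, 5.54 to 6.55 for Rims3 and 6.01 to 6.88 for Scamp5. Background at the 95th percentile (4.91) raised the minimum folds over all cDC arrays to between 67.1 (Dmpk) and 77.8 (Pcolce2), Rims3 staying at 66.0.

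The difference between CD8+ and CD8- cDC was called for none of the 5 genes under any alternative run. Leaving out 1 array gave -1.08 to 0.35 for Dmpk, -0.59 to 0.60 for Paqr9, -1.30 to 0.75 for Pcolce2, -1.06 to 0.96 for Rims3 and -0.12 to 1.62 for Scamp5. Without both CD8+ cDC replicate 2 and CD8- cDC replicate 1, an alternative chosen after seeing the data, Paqr9 turned to -0.09 and Pcolce2 to 0.24, and with all probes averaged Paqr9 turned to -0.033.

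Counts of called family genes, 19 higher and 9 lower, were 6 to 14 and 3 to 7 when 1 array was left out. The higher ones numbered 12 (7.36%) without macrophage replicate 1 and 6 (3.68%) without macrophage replicate 2, where 6.92% and 4.29% of all genes were higher. The lower ones numbered 4 without macrophage replicate 2, 5 without either CD8+ cDC array, and 4 or 3 when CD8- cDC lost its replicate 1 or its replicate 2, while the share over all genes was 2.91% to 4.04%. With dim probes left out, 4 neighbours were higher and 1 lower, but 18.1% and 17.1% of the 9664 genes kept were then called. Neighbours at background on all arrays were not among those kept. With the replicate number as a block, 23 family genes were higher and 10 lower, and 3 neighbours higher. The family shares were 14.1% and 6.13%, against 9.20% and 7.88% of all genes in that fit. Without both cDC arrays named above, 0 family genes and 0 neighbours were called in either direction, as were 0 of 19057 genes, with 1 residual degree of freedom; all 31 called genes of both kinds kept their direction. The arrays kept in that fit had also made the calls, so the kept direction is no separate support. Quantile normalization and median centring changed no direction or call of the 5 genes.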
